A study of Mus musculus with 8 samples.

Results

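The genes described are 10 genes of the glutathione and thioredoxin systems, measured in the striatum of R6/2 mice, a model of Huntington's disease. They are the glutathione peroxidases Gpx1, Gpx3, Gpx4, Gpx6, Gpx7 and Gpx8, the glutathione synthesis genes Gclc and Gclm, glutathione reductase (Gsr) and thioredoxin reductase (Txnrd1). Every probe set that the platform annotation gives to these genes was kept, which made 16 of the 45037 probe sets on the array that are not controls, and 10 of 18193 genes. The genes were selected on their function with the measured log2 differences between R6/2 and wild-type mice on these same arrays already known, so their genotype differences are given as descriptions and not as tests. Striatal RNA of 4 R6/2 mice (numbers 64, 65, 70 and 78) and 4 wild-type mice (numbers 42, 48, 54 and 63) had been hybridised to 1 Affymetrix array per mouse. All 8 animals were labelled as females of 85 days, or 12 weeks, on a C57Bl/6 / CBA background. A further wild-type animal named in the study's design, which lists 5, was not analysed here. R6/2 mice carry the first exon of the human huntingtin gene with an expanded CAG repeat under the human promoter, in addition to their own intact huntingtin genes.

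Glutathione is a small thiol made in neurons and glia in a pair of steps, the first of which is catalysed by glutamate-cysteine ligase. Glutathione peroxidases use it to reduce hydrogen peroxide and lipid peroxides, and glutathione reductase returns the oxidised form to the reduced form with NADPH. Thioredoxin reductase serves the parallel thioredoxin system. Gpx1, Gpx3, Gpx4 and Txnrd1 encode selenoproteins, whereas mouse Gpx6, Gpx7 and Gpx8 encode enzymes with cysteine in the active site.

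Promoter sequences are shown for Gpx6 and Gpx3 because these were the members whose values did not overlap between genotypes, which was so for 16.1% of all probe sets. They come from RefSeq on GRCm38.p6 and run from 250 bases before to 50 bases after the annotated start of the gene. The Gpx6 promoter lies at chr13:21311953-21312252 on the plus strand and the Gpx3 promoter at chr11:54902604-54902903 on the plus strand. Capitals mark matches, on either strand, to CCAAT or GGGCGG.
Gpx6: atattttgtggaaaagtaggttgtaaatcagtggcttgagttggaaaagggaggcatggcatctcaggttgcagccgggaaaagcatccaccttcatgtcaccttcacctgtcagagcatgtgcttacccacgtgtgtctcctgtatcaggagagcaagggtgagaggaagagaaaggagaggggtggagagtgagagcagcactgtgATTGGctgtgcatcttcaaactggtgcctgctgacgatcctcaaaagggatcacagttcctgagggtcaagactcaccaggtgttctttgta
Gpx3: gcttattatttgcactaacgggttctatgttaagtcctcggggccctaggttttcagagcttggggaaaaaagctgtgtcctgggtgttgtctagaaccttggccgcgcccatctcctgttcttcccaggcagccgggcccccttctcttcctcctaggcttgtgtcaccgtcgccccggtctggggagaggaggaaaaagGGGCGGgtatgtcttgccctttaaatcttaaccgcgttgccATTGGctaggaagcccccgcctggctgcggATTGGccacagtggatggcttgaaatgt

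The Gpx6 window held 1 CCAAT match and no GGGCGG, and the Gpx3 window held 2 CCAAT matches and 1 GGGCGG. Over all 32851 promoter windows of the same length, 37.4% held CCAAT and 35.7% held GGGCGG. Neither window held TGACNNNGC, the core of the antioxidant response element bound by the transcription factor Nrf2, which occurred in 12.4% of all windows. Among the 13 windows of the 8 member genes that had an entry, 2 held it, both on the minus strand, and they belong to Gclm and to 1 of 3 start sites of Txnrd1. These stretches are shown with the element in capitals, since both genes are textbook targets of Nrf2. That of Gclm lies in the window chr3:122245307-122245606 and that of Txnrd1 in chr10:82858956-82859255, each written on the plus strand of its gene.
Gclm: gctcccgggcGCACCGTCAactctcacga
Txnrd1: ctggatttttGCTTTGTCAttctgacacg

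Values are log2 expression per probe set, with array medians between 5.08 and 5.13 and correlations between arrays from 0.983 to 0.994. Such correlations mostly reflect differences between genes and do not give the precision of a single probe set. Each group had 4 arrays, which limits that precision. As a guide to background, 9 probe sets of the Y-linked genes Eif2s3y, Kdm5d and Uty read at most 3.67 in these female mice, while all 13 Y-linked probe sets, Sry, Zfy2 and Usp9y included, read between 2.77 and 5.37. The 4 probe sets of the mouse huntingtin gene Htt differed by -0.099 to 0.093 and were not called, and they say nothing of the human transgene. The tissue label was checked with 18 medium spiny neuron markers, none of which averaged at or below 3.67. For example Ppp1r1b, which encodes DARPP-32, read from 11.19 to 11.34 in R6/2 striatum and from 12.03 to 12.35 in wild-type striatum. Of these markers 16 were called lower in R6/2 mice, at an adjusted p under 0.05 with limma over all probe sets, and in striatal RNA fewer cells of a type and less RNA per cell cannot be told apart. A genotype difference is R6/2 minus wild-type on the log2 scale with its standard error (SE).

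Gpx6 had the largest difference of the 16 probe sets. Its single probe set (1452135_at, gene on chromosome 13) read 3.85, 3.97, 3.87 and 4.05 in R6/2 mice 64, 65, 70 and 78, against 6.19, 6.57, 4.72 and 5.40 in wild-type mice 42, 48, 54 and 63. The R6/2 values lay close together just above the Y-linked level of 3.67, the wild-type values were spread widely, and the groups were 0.67 apart at their nearest. The means were 3.94 ± 0.096 in R6/2 and 5.72 ± 0.82 in wild-type striatum (SD, n = 4 each), a difference of -1.78 ± 0.32 or a 3.44-fold lower level. Only 23 of the 45037 probe sets differed by more in size. The R6/2 values also lay within the range of all 13 Y-linked probe sets, and RMA compresses differences near background, so the ratio is approximate.

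The spread of Gpx6 among wild-type mice, an SD of 0.82, was wider than that of 99.6% of all probe sets, whose median SD was 0.14. The R6/2 values lay near background, so their spread was not compared with it. Wild-type mouse 48 read highest and mouse 54 lowest. The difference between genotypes was -2.12 ± 0.23 without wild-type mouse 54 and -1.50 ± 0.28 without wild-type mouse 48. Scores of neither medium spiny nor cortical neurons followed the order of the wild-type mice in Gpx6. Mouse 54 had the highest medium spiny neuron score of the 4, at 0.11, and mouse 48 had 0.079, where a score averages, over the marker genes, how far a mouse lies from the wild-type mean. On the 14 cortical projection neuron markers mouse 54 was lowest at -0.45, but mouse 63, next lowest in Gpx6, scored 0.12, above the 0.044 of mouse 48. The R6/2 mice ranged from -0.91 to -0.87 on the medium spiny neuron score, against -0.24 to 0.11 in wild-type mice, and from -0.98 to -0.16 on the cortical score, against -0.45 to 0.28 in wild-type mice. The part of these cell types in the Gpx6 difference was not tested.

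Other genes were compared with Gpx6 by Pearson's r of deviations from the genotype means over the 8 arrays, among 19327 named probe sets brighter than the median. The 6 most alike were Clasp2 (r = 0.97), Cgrrf1 (0.96), Entpd7 (0.96), Mrpl15 (0.96), Tbkbp1 (0.96) and Lrr1 (0.95). They were picked from many candidates for their r, and the 99th percentile of all candidates was 0.78. Gpx6 varied mostly among the wild-type mice, so r rests mainly on those mice. All 6 ranked the wild-type mice as Gpx6 did, mouse 48 highest, then 42, 63 and 54. Picking the highest r favours a shared order, so it is not a separate result. Clasp2, which encodes a microtubule plus-end protein, read 6.16, 6.33, 5.68 and 5.93 in wild-type mice 42, 48, 54 and 63. The genotype differences of the 6 ranged between -0.12 for Entpd7 and 0.52 for Cgrrf1, against -1.78 for Gpx6.

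**Figure D1:**
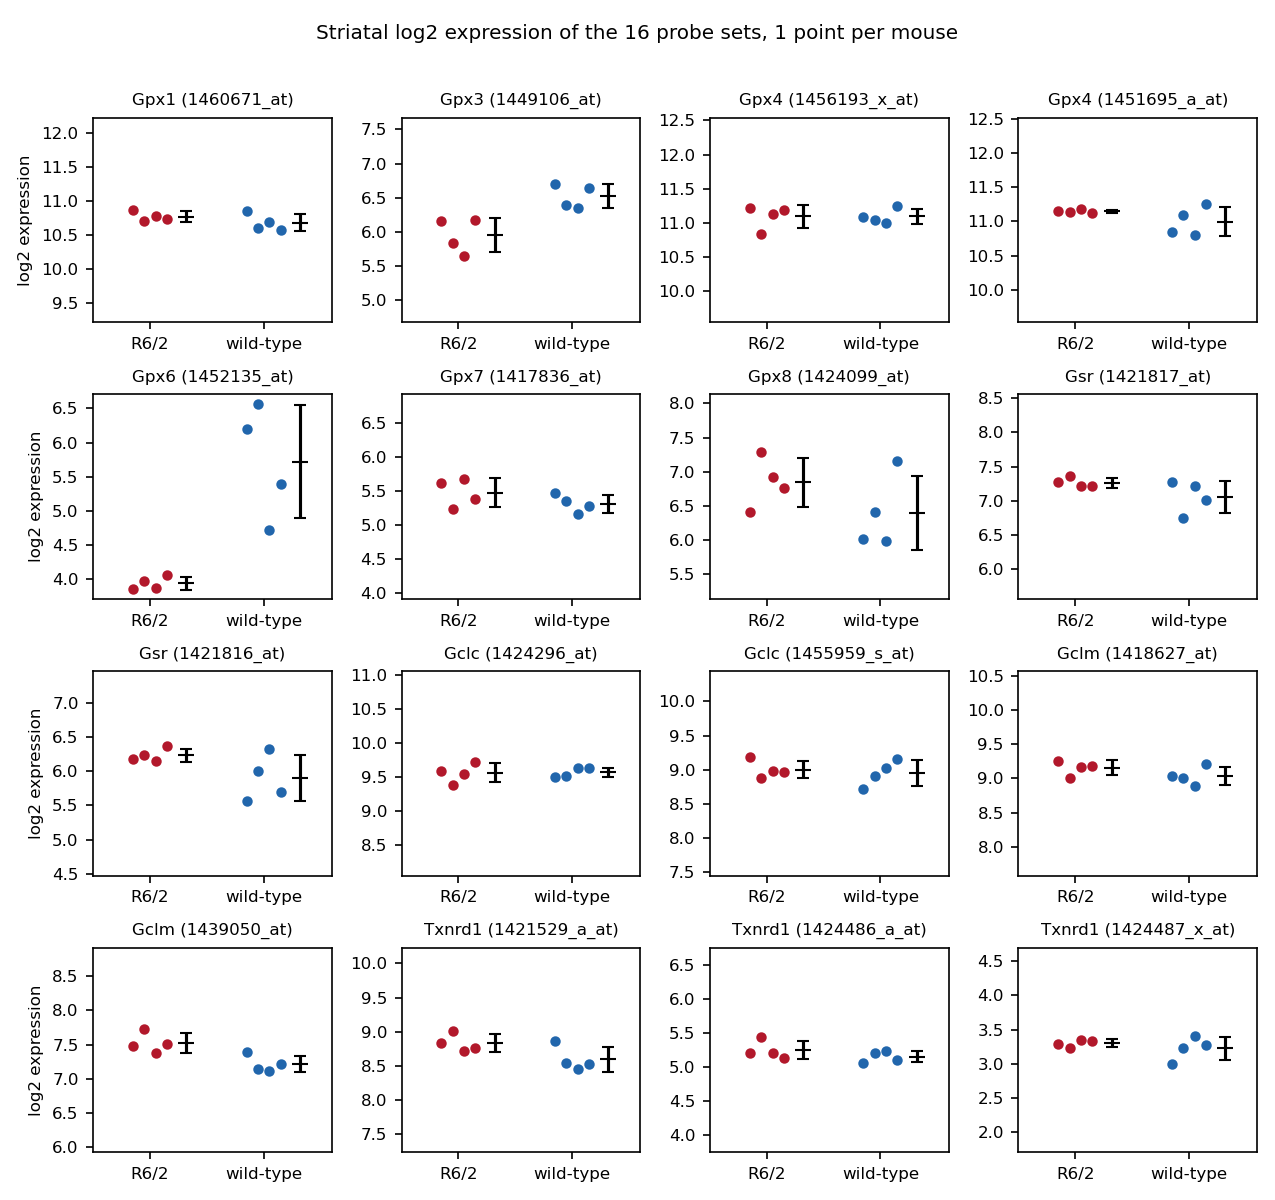
Log2 expression (vertical axis, every panel spanning 3 log2 units) of each of the 16 probe sets in R6/2 mice (left, red) and wild-type mice (right, blue), 1 point per mouse, with mean and SD in black (n = 4 each). Points run in order of mouse number. Gpx6 and Gpx3 are the only panels in which all R6/2 points lie below all wild-type points, and Gpx6 in wild-type mice ranges from 4.72 to 6.57.

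Gpx3, the secreted peroxidase of plasma and extracellular fluid, was the other member with a lower level. Its probe set (1449106_at, gene on chromosome 11) read 6.15, 5.84, 5.65 and 6.17 in R6/2 mice 64, 65, 70 and 78, against 6.70, 6.39, 6.35 and 6.64 in wild-type mice 42, 48, 54 and 63. Every R6/2 value lay below every wild-type value, with 0.19 between the nearest of them. The means were 5.95 ± 0.25 in R6/2 and 6.52 ± 0.18 in wild-type striatum (SD, n = 4 each), a difference of -0.57 ± 0.13 or 1.49-fold. The difference was -0.53 ± 0.15 without R6/2 mouse 65, -0.47 ± 0.12 without R6/2 mouse 70, -0.51 ± 0.14 without wild-type mouse 42 and -0.53 ± 0.15 without wild-type mouse 63.

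Marker scores of astrocytes and of vascular cells were lower in R6/2 mice too. On 13 astrocyte markers the R6/2 mice scored from -0.35 to -0.20, against -0.14 to 0.19 in wild-type mice, and 3 markers were called lower and none higher. On 14 endothelial and mural markers the R6/2 mice scored from -0.32 to -0.22, against -0.13 to 0.089 in wild-type mice, with 5 called lower and none higher. Cldn5, a tight junction protein of brain endothelium, was the vascular marker with the smallest adjusted p and fell by 0.84 ± 0.15 (adjusted p = 0.00660, limma). No marker of either list averaged at or below 3.67. Among R6/2 mice, numbers 78 and 64 were the highest both in Gpx3 and on the astrocyte score, at -0.20 and -0.24, and numbers 65 and 70 scored -0.35 each. On the vascular score the order differed, since mouse 70 was lowest in Gpx3 but highest there. The part of these cell types in the Gpx3 difference was not tested.

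Gpx1, the cytosolic peroxidase that removes hydrogen peroxide (1460671_at, chromosome 9), read between 10.70 and 10.87 in R6/2 mice and between 10.57 and 10.85 in wild-type mice. The difference was 0.093 ± 0.082. Of the wild-type mice only number 42 lay within the R6/2 range, and the difference was 0.15 ± 0.075 without it. Gpx4, which reduces lipid peroxides within membranes and restrains ferroptosis, was covered by 2 probe sets (chromosome 10). Of these 1456193_x_at differed by -0.0010 ± 0.10 and 1451695_a_at by 0.16 ± 0.10, and the suffix _x_at marks probes that may also bind other transcripts. The sign of the smaller difference was opposite after median centring, with array weights, and when R6/2 mouse 65 or wild-type mouse 63 was left out. On the other probe set the R6/2 mice read 11.15, 11.15, 11.18 and 11.13 and the wild-type mice 10.84, 11.09, 10.80 and 11.25, so the R6/2 mice were tightly grouped inside the wild-type range.

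Gpx7, a peroxidase of the endoplasmic reticulum that aids oxidative protein folding (1417836_at, chromosome 4), lay between 5.23 and 5.68 in R6/2 mice and between 5.15 and 5.47 in wild-type mice. Its difference of 0.16 ± 0.11 was within the spread of the mice. Gpx8, a membrane-bound relative in the same compartment (1424099_at, chromosome 13), had the largest positive difference, 0.45 ± 0.26, and it also had the largest error after Gpx6. It read 6.41, 7.28, 6.93 and 6.76 in R6/2 mice 64, 65, 70 and 78, against 6.02, 6.41, 5.99 and 7.15 in wild-type mice 42, 48, 54 and 63. The groups overlapped, because R6/2 mouse 64 read as low as wild-type mouse 48 and wild-type mouse 63 read above all but 1 of the R6/2 mice.

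Gpx8 ran in the same order within each genotype as a score of 14 choroid plexus and ependymal markers, tissue that lines the ventricle beside the striatum. The scores were -0.66, 1.16, 0.83 and 0.61 in R6/2 mice 64, 65, 70 and 78, against -0.29, 0.086, -0.61 and 0.81 in wild-type mice 42, 48, 54 and 63. Ttr, the transthyretin gene, which choroid plexus expresses at very high levels, was at 12.26 in R6/2 mouse 64 and 14.16 in R6/2 mouse 65, and at 12.10 in wild-type mouse 54 and 14.15 in wild-type mouse 63. No marker of the list averaged at or below 3.67. Of the 14 markers 1 was called lower (Ccdc153) and 1 higher (Enkur). Not every marker followed the score, since Enkur was highest in R6/2 mouse 64, at 5.35, the R6/2 mouse with the lowest score. Gpx3 did not share the order of the score. Its highest R6/2 mice, 64 and 78, had the lowest choroid plexus scores of the R6/2 mice. Wild-type mouse 63, with the highest score of its group, was second in Gpx3. Other scores ran partly with Gpx8. On 9 meningeal and fibroblast markers the R6/2 mice 64, 65, 70 and 78 scored -0.16, 0.20, 0.24 and 0.24, against -0.054, 0.019, -0.20 and 0.23 in wild-type mice 42, 48, 54 and 63, which is the Gpx8 order in wild-type mice, with mouse 64 lowest of the R6/2 mice on both. Wild-type mouse 63, highest of its group in Gpx8, also had the lowest medium spiny neuron score of its group, at -0.24, and the highest oligodendrocyte score, at 0.27. Gpx8 with the choroid plexus score was picked from the pairings of every member probe set with every marker score. Its r of deviations from the genotype means was 0.91 over the 8 arrays. Other members reached a like size. The bright Gclm probe set had 0.96 with an interneuron score, and Gclc 1455959_s_at had -0.87 with the vascular score. The part of these tissues and cell types in the Gpx8 difference was not tested.

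**Figure D2:**
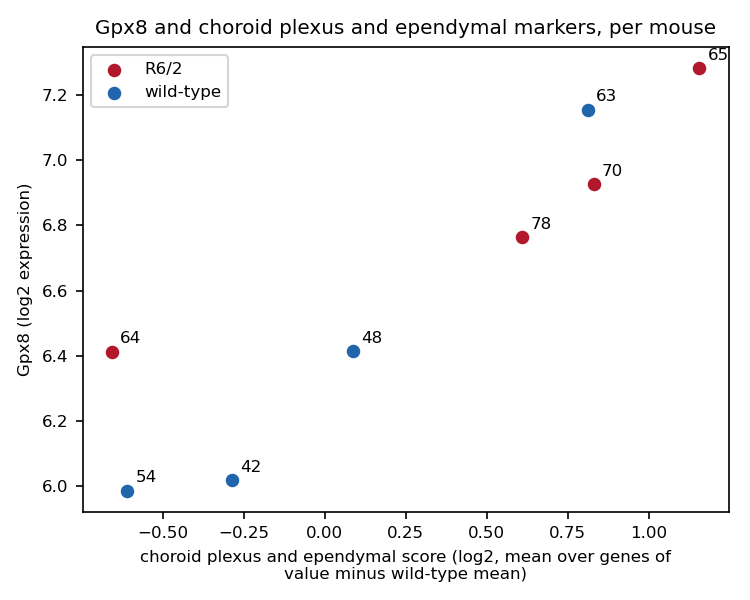
Gpx8 (vertical axis, log2 expression) against the choroid plexus and ependymal score (horizontal axis, log2, averaged over 14 markers and set to 0 at the mean of wild-type mice) in R6/2 (red) and wild-type (blue) mice, 1 point per mouse labelled with its number. Within each genotype the mice have the same order on both axes. Gpx8 runs from R6/2 mouse 64 at 6.41 to R6/2 mouse 65 at 7.28. It runs from wild-type mouse 54 at 5.99 to wild-type mouse 63 at 7.15. The pair was picked from those of every member probe set with every marker score.

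Of the genes of glutathione synthesis, Gclc differed little, and Gclm differed by unequal amounts on its probe sets. Gclc, the catalytic subunit of glutamate-cysteine ligase, had 2 probe sets (chromosome 9), with differences of -0.0069 ± 0.085 for 1424296_at and 0.048 ± 0.11 for 1455959_s_at. The brighter read between 9.39 and 9.73 in R6/2 mice and between 9.51 and 9.63 in wild-type mice. Its sign turned under 6 of 15 alternatives, and the other turned under 2 of 14. Gclm, the modifier subunit that raises the activity of the enzyme, had a bright probe set, 1418627_at, that differed by 0.12 ± 0.090 and a dimmer one, 1439050_at, that differed by 0.31 ± 0.094 (chromosome 3).

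The dimmer Gclm probe set read 7.48, 7.73, 7.38 and 7.51 in R6/2 mice 64, 65, 70 and 78, against 7.38, 7.15, 7.11 and 7.21 in wild-type mice 42, 48, 54 and 63. The groups overlapped by 0.0021 only, between R6/2 mouse 70 and wild-type mouse 42. Without wild-type mouse 42 its difference was 0.37. The bright one averaged 9.15 ± 0.11 in R6/2 mice and 9.04 ± 0.14 in wild-type mice (SD, n = 4 each), so both probe sets of Gclm had positive differences of unequal size.

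The reductases Gsr and Txnrd1 had 5 probe sets, of which the dimmest, of Txnrd1, lay below the Y-linked level, and the others had positive differences. Gsr, which regenerates reduced glutathione, had probe sets with differences of 0.21 ± 0.11 for the brighter, 1421817_at, and 0.33 ± 0.15 for the dimmer, 1421816_at (chromosome 8). The brighter read 7.27, 7.37, 7.21 and 7.21 in R6/2 mice 64, 65, 70 and 78, against 7.27, 6.75, 7.21 and 7.01 in wild-type mice 42, 48, 54 and 63. On the dimmer one the R6/2 mice lay between 6.15 and 6.37 and the wild-type mice between 5.57 and 6.33, with wild-type mouse 54 inside the R6/2 range, and the difference was 0.47 without that mouse. The SD among wild-type mice was 3.19 times that among R6/2 mice on the brighter probe set and 3.43 times on the dimmer one. On the brighter one R6/2 mice 70 and 78 and wild-type mouse 54 held exactly the same deposited value, so its ratio is uncertain.

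Txnrd1, the cytosolic thioredoxin reductase, had 3 probe sets (chromosome 10), of which the brightest, 1421529_a_at, differed by 0.24 ± 0.11. It read 8.84, 9.01, 8.72 and 8.76 in R6/2 mice 64, 65, 70 and 78, against 8.86, 8.54, 8.45 and 8.53 in wild-type mice 42, 48, 54 and 63. Wild-type mouse 42 alone lay within the R6/2 range, and the difference was 0.33 without it. The dimmer probe sets differed by 0.095 ± 0.086 (1424486_a_at) and 0.075 ± 0.092 (1424487_x_at). The dimmest of them read at most 3.40 on any array, below the Y-linked level of 3.67, so it gives no measure of the transcript, and its difference was -0.00083 without wild-type mouse 42.

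Of the 16 probe sets, 2 were called lower and none higher. With limma over all 45037 probe sets, 10.1% were called, 4.59% lower and 5.54% higher. At an unadjusted p under 0.05, 2 members were lower and 3 were higher, against 11.6% and 13.4% of all probe sets. The groups did not overlap for 2 members, both lower, and for 16.1% of all probe sets, 7.07% with R6/2 lower and 9.05% with R6/2 higher. The median difference of the 16 was 0.11, and 12 were positive, the dimmest Txnrd1 probe set included. Over all probe sets the median was -0.017 and 45.9% were positive. The members were chosen with this contrast known, so nothing further is read from these shares. Called lower members numbered 1, Gpx6 alone, without R6/2 mouse 65 or 70 or wild-type mouse 42 or 63. Called higher members numbered 2 without wild-type mouse 42 and 1 without wild-type mouse 54.

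**Figure D3:**
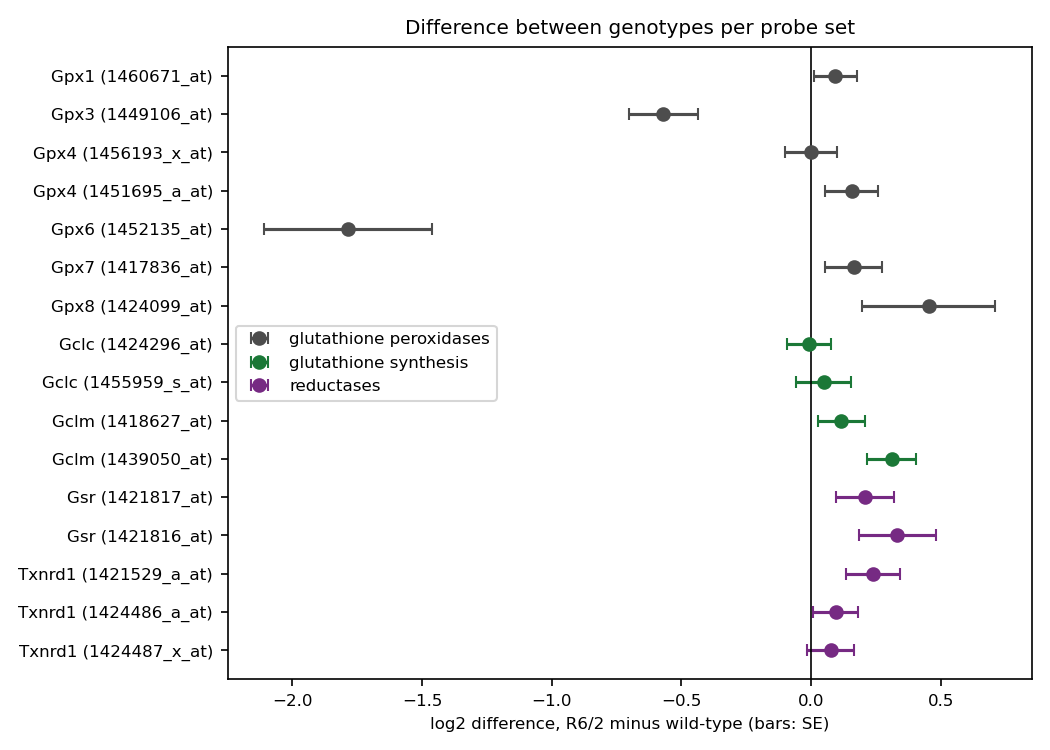
Log2 difference between R6/2 and wild-type striatum (horizontal axis, R6/2 minus wild-type, bars are SE) for each of the 16 probe sets, coloured by role. Gpx6 at -1.78 and Gpx3 at -0.57 stand to the left of 0, and the reductase probe sets other than the dimmest of Txnrd1 lie to the right, between 0.095 and 0.33.

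The rest of the pathway was described with 8 lists holding 124 genes, 116 of which had a named probe set, each gene by its brightest one, and Slc7a11 and Srxn1 are in 2 lists each. In R6/2 striatum 17 of the 116 rose and 7 fell, which is 14.7% and 6.03%, against 7.29% and 5.13% of the brightest probe sets of all genes, of which 12.4% were called. The median difference was 0.052, against -0.0034 over all genes. The lists were chosen with earlier results of these data known, so nothing further is read from these shares or medians. The same holds for the counts of each list below, which stand against the same 7.29% higher and 5.13% lower over all genes. The share called also depended on brightness. With the dimmest 40% of probe sets left out, 18.9% of those kept were called in either direction. The counts varied with single arrays. Those that rose numbered 10 without R6/2 mouse 64 or 70 and 8 without wild-type mouse 48. Those that fell numbered 3 without R6/2 mouse 65, 4 without R6/2 mouse 70 or wild-type mouse 42, and 2 without R6/2 mouse 78 or wild-type mouse 48 or 54. Without moderation 8 rose and 1 fell, and with array weights 23 rose and 7 fell. Adjusted p-values in what follows are from limma over all probe sets.

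Glutathione supply and turnover had 13 measured genes and no call, while at an unadjusted p under 0.05 5 were higher and 1 was lower, against 17.0% and 12.1% of the brightest probe sets of all genes. The mitochondrial glutathione carrier Slc25a39 differed by 0.26 ± 0.079 (adjusted p = 0.0690), with its 4 other probe sets between -0.076 and 0.17, and the cysteine and glutamate transporter Slc1a1 by -0.15 ± 0.083 (adjusted p = 0.311), with its others at -0.047 and 0.20. Gss, which catalyses the second step of synthesis, was looked at after its values were seen. It differed by 0.27 ± 0.077 (adjusted p = 0.0539), and its groups did not overlap, as held with R6/2 higher for 11.7% of the brightest probe sets of all genes. The remaining peroxidase genes Gpx2 and Gpx5 differed by 0.082 ± 0.071 and 0.037 ± 0.17 and were not called, also at an unadjusted p under 0.05 (0 of 2, limma).

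Glutathione transferases, which attach glutathione to toxic compounds, had 3 of 22 genes higher and none lower. Gstz1 rose by 0.46 ± 0.082 (adjusted p = 0.00788), Mgst1 by 0.45 ± 0.095 (adjusted p = 0.0159, its dim other probe set at 0.11) and Gsto1 by 0.43 ± 0.094 (adjusted p = 0.0177). The Gsto1 call was lost without wild-type mouse 48 (adjusted p = 0.0549), while its other probe set rose by 0.73 ± 0.19 (adjusted p = 0.0403). The transferases Gstp1 and Gstm5 differed by 0.17 and -0.012 and were not called (named after their values were seen).

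Of 15 genes of thioredoxins, peroxiredoxins and glutaredoxins, 2 rose and none fell. Prdx4, the peroxiredoxin of the endoplasmic reticulum, read 8.30, 8.25, 8.27 and 8.14 in R6/2 mice 64, 65, 70 and 78, against 7.61, 7.59, 7.30 and 7.65 in wild-type mice 42, 48, 54 and 63. The groups were well apart, with a rise of 0.70 ± 0.091 (adjusted p = 0.00195), and the call held in all 15 alternatives. Its dimmer probe sets moved less (0.20, 0.21 and -0.062, none called). The glutaredoxin Glrx rose by 0.51 ± 0.14 (adjusted p = 0.0431), a call lost without any R6/2 mouse or wild-type mouse 48 or 54, at most to adjusted p = 0.116. A second Glrx probe set was at 0.45 (adjusted p = 0.0578).

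Of 24 genes for selenium use and selenoproteins, 4 rose and 2 fell. Dio2, the deiodinase that activates thyroid hormone, mainly in glia, read 7.63, 7.03, 7.54 and 7.42 in R6/2 mice 64, 65, 70 and 78, against 8.77, 8.76, 8.54 and 8.53 in wild-type mice 42, 48, 54 and 63. It fell by 1.24 ± 0.13 (adjusted p = 0.000671), and a second probe set fell by 0.87 ± 0.14 (adjusted p = 0.00493), while another, dim at a mean of 4.17, differed by -0.10. The astrocyte score was lower in R6/2 mice too, as given above, and its part in the Dio2 fall was not tested. Trnau1ap, a factor bound to the selenocysteine tRNA, rose by 0.51 ± 0.080 (adjusted p = 0.00424), with its other probe set at 0.27 (adjusted p = 0.142). Selenoo rose by 0.45 ± 0.099 (adjusted p = 0.0184), and Selenoi, which acts in phospholipid synthesis, fell by 0.45 ± 0.10 (adjusted p = 0.0234), while its 3 other probe sets differed by -0.22, -0.016 and -0.15 and were not called. The call of Selenoo was lost without R6/2 mouse 64 or 70 or wild-type mouse 48 (at most adjusted p = 0.0575), and that of Selenoi without any R6/2 mouse or wild-type mouse 48 or 54 (at most adjusted p = 0.0650). Selenop, the selenium carrier, differed by 0.026 ± 0.11 and was not called (named after its values were seen).

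Of 22 genes of the Nrf2 system, 5 rose and 2 fell, with a median of -0.075. Bach1, a repressor that competes with Nrf2 at antioxidant response elements, rose by 0.43 ± 0.072 (adjusted p = 0.00607), though its other, dim probe set differed by -0.041. Sqstm1, the autophagy receptor p62, rose by 0.46 ± 0.11 (adjusted p = 0.0233), while its other, dim probe set differed by -0.23 and was not called. Pgd, an NADPH-producing enzyme of the pentose phosphate pathway, rose by 0.36 ± 0.086 (adjusted p = 0.0261), as did its 3 other probe sets. Blvrb, a biliverdin reductase, fell by 0.47 ± 0.11 (adjusted p = 0.0293). Named after their values were seen, Nfe2l2, which encodes Nrf2 itself, rose by 0.39 ± 0.11 (adjusted p = 0.0413), its target Nqo1 rose by 0.44 ± 0.11 (adjusted p = 0.0363), and Cbr3 fell by 0.32 ± 0.088 (adjusted p = 0.0463). The targets Hmox1 (-0.087), Srxn1 (0.17) and Slc7a11 (-0.15), named in the same way, were not called.

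Apart from Bach1, these Nrf2 system calls depended on single arrays. The call of Nfe2l2 was lost without any mouse except wild-type mouse 63 (at most adjusted p = 0.101), that of Nqo1 without any mouse except R6/2 mouse 64 and wild-type mouse 63 (0.101), and that of Cbr3 without any mouse except wild-type mouse 63 (0.122). That of Sqstm1 was lost without R6/2 mouse 64, 70 or 78 or wild-type mouse 48 (at most adjusted p = 0.0672), and that of Pgd without any mouse except R6/2 mouse 65 and wild-type mouse 42 (0.0745). That of Blvrb was lost without R6/2 mouse 65 or 78 or wild-type mouse 42, 48 or 54 (0.0747).

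Among 9 genes that act on superoxide, hydrogen peroxide and oxidised methionine, 2 rose and 1 fell, and all 3 were methionine sulfoxide reductases. Msrb2, the mitochondrial form, rose by 0.59 ± 0.091 (adjusted p = 0.00403) and Msrb3 by 0.61 ± 0.11 (adjusted p = 0.00965), with another, dim Msrb3 probe set at 0.014. Msra fell by 0.43 ± 0.10 (adjusted p = 0.0238), a call lost without R6/2 mouse 78 or wild-type mouse 48 or 54 (at most adjusted p = 0.0572). The superoxide dismutases Sod1 (-0.38), Sod2 (0.31) and Sod3 (0.0051) and catalase (Cat, -0.091) were not called. They were named after their values were seen.

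Of 11 genes of lipid peroxidation and iron, 1 rose and 2 fell, and those that moved act on iron. Ncoa4, the receptor that takes ferritin to lysosomes, rose by 0.43 ± 0.066 (adjusted p = 0.00403), and a further probe set was at 0.48 (adjusted p = 0.113). Slc40a1, the iron exporter ferroportin, fell by 0.66 ± 0.13 (adjusted p = 0.0107), while its dimmer probe set differed by 0.12. Tfrc, the transferrin receptor, fell by 0.36 ± 0.098 (adjusted p = 0.0469), while its dimmer probe sets differed by 0.096 and -0.097 and were not called. The Tfrc call was lost without any mouse except R6/2 mouse 64, at most to adjusted p = 0.122. Of the genes that set how membranes respond to loss of Gpx4, Acsl4 differed by 0.079 ± 0.12 and Aifm2 by 0.21 ± 0.098. Neither was called. Dhodh, of the same list, differed by 0.33 ± 0.095 (adjusted p = 0.0532) and was not called either. Acsl4, Aifm2 and Dhodh were named after their values were seen.

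**Figure D4:**
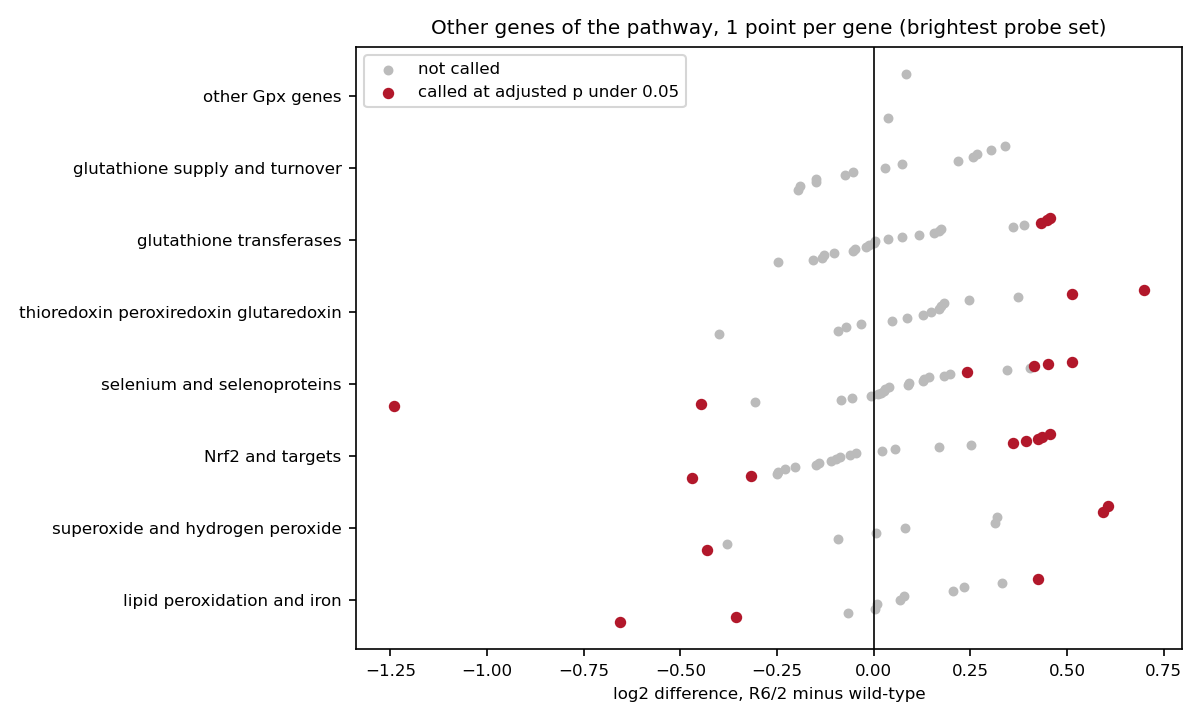
Log2 difference between R6/2 and wild-type striatum (horizontal axis, R6/2 minus wild-type) for the genes of 8 lists, 1 point per gene by its brightest probe set, ordered by size within a list. Red points were called at an adjusted p under 0.05 with limma. The largest fall is that of Dio2 at -1.24 and the largest rise that of Prdx4 at 0.70.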

How the data were processed

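The deposited log2 expression values per probe set were made by the authors with affy and RMA (per the submitters' processing notes, without versions), and the set of arrays normalized jointly is not stated. RNA was labelled with biotin, per the labels' protocols. Of the deposited probe sets, 64 controls were left out. Symbols were those of the platform annotation, where 34945 probe sets had 1 symbol, 932 had several and were not named, 9160 had no entry, and symbols were updated by Entrez ID (34741 matched RefSeq genes of GRCm38.p6). No column was unused. The values were fitted with limma 3.58.1 in R 4.3.3 (lmFit, eBayes, 8 arrays, no covariate), with Benjamini-Hochberg adjustment over 45037 probe sets and a call at 0.05. Pathway and marker genes were represented by the probe set with the highest mean. The labels number each mouse, so p-values rest on variation among animals. The members and lists were chosen with earlier results of these data known. Named pathway genes were up to 4 called genes of each list with the smallest adjusted p, or the 2 brightest where none was called. Scripts were tested on simulated data. Alternatives were quantile normalization, median centring, leaving out the dimmest 40%, moderation with trend and robust settings, moderation left out, array weights, 1 probe set per gene, and leaving out each array. Figures used Python 3.11.15 and matplotlib 3.10.9.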

Additional observations from a re-analysis of the deposited data

How the results depend on the processing

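Gpx6 was lower in R6/2 mice in all 15 alternatives, with differences from -2.12 to -1.50 when 1 array was left out, and was called in all but the fit without moderation. Gpx3 was lower in all 15 and past the threshold in 10, not without moderation or without any 1 of R6/2 mice 65 and 70 and wild-type mice 42 and 63. These calls describe the fit, since the members were selected with this contrast known. Members called lower numbered 0 without moderation and 1 to 2 when 1 array was left out. Members called higher numbered 1 with array weights (Gclm) and 0 to 2 when 1 array was left out. Pathway genes that fell numbered 1 without moderation and 2 to 6 when 1 array was left out, and those that rose 8 and 8 to 17. With array weights 23 pathway genes rose and 7 fell. All probe sets called numbered 4566 (10.1%) in the fit over all arrays and 1861 without moderation. They numbered 5996 with array weights and 4855 with trend and robust moderation. With 1 probe set per gene 2781 of 18193 (15.3%) were called, and with the dimmest 40% left out 5117 of 27022 (18.9%). Leaving out 1 array gave 2650 to 4262. The lowest were 2650 without R6/2 mouse 70, 2656 without wild-type mouse 48 and 2780 without R6/2 mouse 64. The cause of these changes was not tested, except that fewer arrays or fewer probe sets enter some fits. The median difference over all probe sets was -0.017 as deposited, 0.0030 after quantile normalization and -0.0043 after median centring. No paired analysis was possible because the groups share no mouse numbers. With 4 arrays a group the median SE of a difference over all probe sets was 0.096, and Gpx6 in R6/2 mice and the dimmest Txnrd1 probe set lay near background.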

Other observations

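Of the 16 probe sets, 1 of Gsr and 1 of Txnrd1 held exactly the same deposited value on 3 arrays each. Over the whole table, 41.3% of the 45037 probe sets shared a value between at least 2 arrays and 15.5% between at least 3, and these values were used as deposited. In the groups of 4 mice none of 32 sets of member values had a mouse that stood apart by Dixon's test. Among the wild-type mice, number 54 had the lowest value of 9 of the 16 probe sets, those of Gpx3, Gpx4 (both), Gpx6, Gpx7, Gpx8, Gclm (both) and the brightest of Txnrd1, and the highest value of the dimmer Gsr probe set (6.33) and of the dimmer Txnrd1 probe sets (5.24 and 3.40). This mouse was singled out after the values were seen.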
